A study of Mus musculus with 12 samples.

Results

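The genes described here are the nuclear-coded genes of oxidative phosphorylation, chosen by name with earlier results of these data known. A gene was a member if its name began with Uqcr, Atp5, Cox4 to Cox8 or Nduf followed by a subunit letter and number, or was Sdha, Sdhb, Sdhc or Sdhd. Of 83 names that matched, 1 pseudogene name was left out, which left 82 members among the 18604 genes found in any of the 4 deposited tables. They fell into 35 genes of complex I, 4 of complex II, 8 of complex III, 19 of complex IV and 16 of complex V. Ndufa4 and Ndufa4l2 were counted with complex IV, as was Cox7a2l, though it joins complexes. Atp5s, which is not a subunit of the enzyme, was counted with complex V by its name. All members but Cox7b2, a testis form of a complex IV subunit, were in all 4 tables, so 81 had a value in every library.

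Hearts came from male C57Bl/6J mice aged 12 weeks, with 3 libraries in each of 4 groups and no genetic change named in the labels. Mice ate a diet lacking the branched-chain amino acids (BCAA) leucine, isoleucine and valine, or a control diet, from 4 days before surgery until the hearts were taken 1 week after it. Surgery was transverse aortic constriction (TAC), a narrowing of the aorta that makes the left ventricle pump against a higher pressure, or a sham operation. The groups are called BCAA-free TAC, control diet TAC, BCAA-free sham and control diet sham. The labels do not tell whether replicates were separate animals, and the p-values then measure the spread between these libraries only, which may be technical. In bulk RNA, fewer cardiomyocytes and less RNA per cardiomyocyte cannot be told apart.

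Oxidative phosphorylation is the route by which mitochondria make most of the ATP of the beating heart. Complexes I and II take electrons from NADH and succinate, complex III hands them to cytochrome c, and complex IV passes them to oxygen. Complexes I, III and IV pump protons across the inner membrane, and complex V, the ATP synthase, uses the return of those protons to make ATP. A small set of core subunits is coded in mitochondrial DNA, while the members are nuclear genes whose proteins are imported. Nuclear respiratory factor 1 (NRF1) is a transcription factor known for binding promoters of many of these nuclear genes.

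Promoters of the members were searched for short runs of letters. In the RefSeq promoters (GRCm38.p6, windows around each gene's start), 66 of the 82 members had an entry, and a gene counted if any of its promoters held the letters. The letters GCGCA, any base, then GCGC, a form of the NRF1 site, stood on either strand in 17 of the 66 (25.8%) and in 5.19% of all 27025 genes with a promoter. CCGGAAG, an ETS site of the kind bound by the factor GABP, stood in 24.2% of the members and 9.93% of all. AAGATGGC, a YY1 site, stood in 13.6% and 3.19%, and the TATA box letters TATAAA in 10.6% and 15.7%. Sdha and Atp5g2, which had the smallest and the 4th smallest p of all members for TAC on the control diet, are shown because they held such matches. Their 4 NRF1 matches are printed in capitals with 10 bases on each side, 5′ to 3′ on the minus strand, the strand of both genes. The start from which distances are counted is that of RefSeq, at position 74350240 for Sdha and 102671047 for Atp5g2, and it lies downstream of the first base of each gene in the GENCODE models used for gene positions elsewhere. A match describes letters only and is not a binding site. The 27025 genes include genes not measured in these hearts, and promoters were not matched for base content. A link between these letters and the levels of the members was not tested.

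Sdha, chr13:74350319-74350348, 88 bases before the start: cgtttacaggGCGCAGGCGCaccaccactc
Sdha, chr13:74350276-74350305, 45 bases before the start: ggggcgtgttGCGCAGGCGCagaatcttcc
Sdha, chr13:74350231-74350260, 0 bases before the start: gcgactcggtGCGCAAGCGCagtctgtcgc
Atp5g2, chr15:102671070-102671099, 32 bases before the start: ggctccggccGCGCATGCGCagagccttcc

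The first Sdha window overlaps an exon of the neighbouring gene Ccdc127, and the other windows overlap exons of Sdha and Atp5g2 themselves in the GENCODE gene models (vM21, GRCm38), UTRs included.

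Depth ran from 74206246 to 110452636 reads per library. Reads of mitochondrially coded genes made up 17.9 to 19.9% of the total in control diet TAC and 21.9 to 27.1% in the other 9 libraries. All 11 cardiomyocyte markers listed were measured and none was at 0. They summed to 4940200 to 5943800 normalized reads in control diet TAC, 7862600 to 8118400 in BCAA-free TAC, 6733500 to 6982600 in control diet sham and 7180200 to 7838500 in BCAA-free sham. All 5 activated fibroblast markers were measured, none at 0, and summed to 52791 to 109070, 8661 to 16002, 6357 to 7949 and 3640 to 5176 in the same order. Rn7sk, Rmrp and Rpph1, structured RNAs without a poly(A) tail, together were at 115.5 CPM in control diet sham 2, against 2.06 to 19.3 in most libraries, and BCAA-free TAC libraries 1 and 3 had 63.6 and 76.1. Abundant genes weigh most in the cardiomyocyte sum, and Myh6 alone had 2146300 to 2602500 normalized reads in control diet sham. With TAC on the control diet 9 of the 11 cardiomyocyte markers had a fold change below 0 and 2 above 0. Limma called 1 of them lower (5.64% of all genes) and 0 higher (9.17%). The part of these measures in the results on the members was not tested.

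Among the libraries, control diet TAC 3 stood apart for the members. Its place is given by the median over 81 members of the log2 ratio to the control diet sham mean, which was -0.29 in control diet TAC 1, -0.47 in TAC 2 and 0.16 in TAC 3. The sham libraries on the same diet were at 0.11, 0.02 and -0.14, the BCAA-free TAC libraries at 0.26, 0.26 and 0.13, and the BCAA-free sham libraries at 0.13, 0.06 and 0.17. Control diet TAC 1 and 2 thus lay below all other libraries, while TAC 3 lay among those of the BCAA-free diet. Of the 81 members, 62 in TAC 1 and 76 in TAC 2 were below every control diet sham library. In TAC 3 this held for 7, and 44 were above every one. TAC 3 was above both other libraries of its group in 76 members (93.8%) and in 36.1% of all 17710 genes.

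The median gap between TAC 3 and the mean of TAC 1 and 2 was 0.49 on the log2 scale over the members, and -0.05 over all genes. It ran from -0.27 for Cox6b2 to 0.75 for Ndufb5, the last named after its value was seen. Atp5g2 (-0.03), Ndufa4l2 (0.00), Cox8a (0.03) and Sdha (0.13) lay near 0. In TAC 3 mitochondrially coded reads were at 18.2% and the activated fibroblast markers at 52791 normalized reads, the latter the lowest of its group but above every library of the other groups. Other marker sums of TAC 3 also lay outside those of TAC 1 and 2. Red blood cell markers summed to 40751 against 21316 to 21358 and cardiomyocyte markers to 5943800 against 4940200 to 5715000, both higher in TAC 3. Atrial markers summed to 137740 against 204500 to 241340, endothelial markers to 91112 against 108330 to 115470 and smooth muscle and pericyte markers to 74785 against 91733 to 102320, all lower in TAC 3. Fibroblast (162780 against 167570 to 182180), macrophage (21386 against 23707 to 24076) and skeletal muscle markers (6036 against 7003 to 8001) were lower too. Adipocyte and brown fat (3966 against 2724 to 3592) and lymphocyte markers (76.9 against 61.2 to 69.1) were higher, and nerve markers lay between. The structured RNAs were at 19.3 CPM in TAC 3, against 4.23 in TAC 1 and 3.83 in TAC 2. The part of these measures in the place of TAC 3 was not tested. Counts of called members that rest on this library are given with and without it. It was singled out by its values for these same members, so counts without it are not a separate test.

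**Figure D1:**
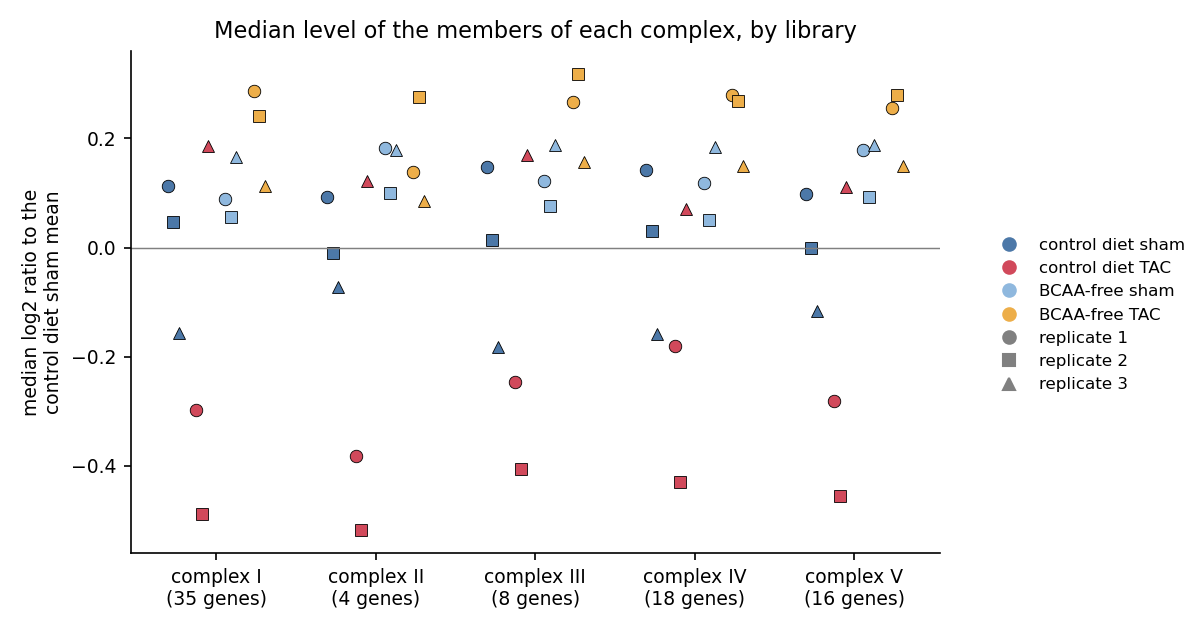
Median over the members of each complex of the log2 ratio of a library to the control diet sham mean (vertical axis), for complexes I to V (horizontal axis, with the number of members in all 4 tables). Colours are the 4 groups, shapes the replicate numbers, and the line is 0. In every complex control diet TAC 1 and 2 are the lowest libraries, and control diet TAC 3 lies above the line.

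The members were abundant. Together they took 4.07%, 3.79% and 5.04% of all reads in control diet TAC 1, 2 and 3, and 4.35 to 4.71%, 4.76 to 5.17% and 4.73 to 4.99% in the control diet sham, BCAA-free TAC and BCAA-free sham libraries. Per kilobase of the principal transcript in control diet sham hearts, Atp5b, the catalytic beta subunit of complex V, was highest at 242920 ± 9732 normalized reads (SD, n = 3). Next came Cox4i1, subunit IV of complex IV, at 195340 ± 12403, Cox7a1, the muscle form of subunit VIIa, at 176420 ± 33580, and Atp5a1, the alpha subunit of complex V, at 163370 ± 2617. Cox7a1 did not differ from Cox4i1 or Atp5a1 beyond its spread. In complex I the highest levels per kilobase were those of Ndufb9 (72068 ± 7310) and Ndufb8 (60835 ± 6340), and the lowest those of Ndufb4 (8709 ± 1921) and Ndufb2 (3336 ± 307). In complex III Uqcrb (78913 ± 9948) and Uqcr11 (69106 ± 8841) stood at the top, and Uqcrc2 (42451 ± 3610) and Uqcrq (29895 ± 3392) at the bottom.

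In complex II, Sdhb, which carries iron-sulphur clusters, had 55853 ± 3838 normalized reads per kilobase and Sdha, the flavoprotein that oxidizes succinate, had 52999 ± 1782, a difference within their spread. The membrane anchors Sdhd (25736 ± 1971) and Sdhc (12913 ± 707) were lower. The lowest members of all were Cox6b2 (87.7 ± 4.25) and Cox7b2 (23.4 ± 5.45), both testis forms. In complex V the lowest were Atp5g2 (18676 ± 1120) and Atp5s (1227 ± 29.7). Medians over the members of a complex were 26601 normalized reads per kilobase for complex I, 38945 for II, 52169 for III, 68872 for IV and 64408 for V. With all exons of a gene joined as its length they were 17534, 27112, 32054, 32805 and 21425, so the place of complex V depended on the length used. Of the 82 members, 36 shared no 50-base stretch with the transcripts of another gene, and 4 shared over 50% of theirs. Those were Atp5g2 (87.4%), Atp5l (84.8%), Cox7c (53%) and Atp5o (50.3%), whose counts are uncertain because the treatment of reads with several matches is not given in the sources.

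TAC on the control diet asks how pressure overload changed these genes. Sdha, Cox7a1, Ndufs1 and Atp5g2 fell, 1 gene each in complexes II, IV, I and V. With all 6 libraries 77 of the 82 members had a fold change below 0, and 4 passed the test as lower (4.88% of the members, 5.64% of all 18305 genes tested) and 0 as higher (9.17% of all genes). A call is a Benjamini-Hochberg adjusted p below 0.05 over all genes tested, by limma on log2(value + 1). The members' median log2 fold change was -0.22, against -0.02 over all genes, and by complex it ran from -0.27 in complex II to -0.20 in complex III. At an unadjusted p below 0.05, 1 member was higher and 13 lower (1.22% and 15.9% of the members, against 16.1% and 13.6% of all genes), so the share that was lower lay near that of all genes.

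Sdha (ENSMUSG00000021577, chr13:74322254-74350280) had 147960, 155150 and 157990 normalized reads in the sham hearts and 99961, 100290 and 109300 in the TAC hearts. The groups did not overlap, and the 3 TAC libraries lay close together. It fell by 0.59 ± 0.112 (log2, SE; adjusted p = 0.00968 by limma). Cox7a1 (ENSMUSG00000074218, chr7:30184144-30186078) had 84254, 64556 and 59192 in sham and 36795, 33056 and 49153 in TAC hearts. All TAC libraries were below all sham libraries, TAC 3 being the highest of its group, and the fall was by 0.82 ± 0.185 (adjusted p = 0.0188 by limma).

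Ndufs1 (ENSMUSG00000025968, chr1:63143596-63176833), which carries iron-sulphur clusters on the electron path of complex I, had 78499, 72491 and 73900 normalized reads in sham and 47874, 50846 and 60809 in TAC hearts. The groups did not overlap, and TAC 3 was again the highest of its group. It fell by 0.51 ± 0.127 (adjusted p = 0.0268 by limma). Atp5g2 (ENSMUSG00000062683, chr15:102662864-102672352), 1 of 3 genes for the c subunit of the complex V rotor, had 14588, 13295 and 13072 in sham and 11617, 9621 and 10350 in TAC hearts. Here too the groups did not overlap, and it fell by 0.39 ± 0.108 (adjusted p = 0.0426 by limma).

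Without overlap between the groups in the scaling of each table, which also holds for such counts in the other comparisons, 7 members were lower and 1 higher, 8.54% and 1.22% of the members, against 16.3% and 18.5% of all genes. Those lower were the 4 called genes with Ndufa12, Atp5a1 and Atp5b. The higher one was Cox6b2, at 48.6, 53.4 and 52 normalized reads in sham and 90.8, 88.4 and 74.4 in TAC hearts, a difference of 0.70 ± 0.208 that was not called (adjusted p = 0.0545 by limma). The next smallest p by complex were those of Ndufa12 (-0.41, adjusted p = 0.0806), Sdhc (-0.33, 0.203), Uqcrq (-0.32, 0.204), Uqcrc2 (-0.24, 0.252) and Atp5j (-0.41, 0.0913), none of them called by limma. In the authors' deposited table, 7 members had an adjusted p below 0.05 as lower (8.07% of all genes) and 1 as higher (11.7%).

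None of the 4 calls was kept whichever library was left out. By limma, Sdha lost it without control diet sham 2 (adjusted p = 0.0566) or sham 3 (0.0569). Cox7a1 lost it without control diet sham 1 (0.0764), sham 2 (0.0553), TAC 1 (0.0774) or TAC 2 (0.0534). Ndufs1 and Atp5g2 lost it without any library other than TAC 3, at adjusted p of 0.0694 to 0.106 and 0.0563 to 0.152. Without control diet TAC 3, 54 members were called lower (12.1% of all genes) and 1 higher (13.6%), with a median of -0.41. Those lower were 26 of 35 in complex I, 4 of 4 in complex II, 4 of 8 in complex III, 8 of 19 in complex IV and 12 of 16 in complex V, and the higher one was Cox6b2.

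Scaling moved these counts as well. Scaled to the library total with all genes, mitochondrially coded ones included, the median of all genes was 0.17 and that of the members -0.03, with 52 members below 0 and 30 above. Sdha and Cox7a1 were then called lower (2 members, 2.14% of all genes), and Cox6a1, Cox6b2, Cox8a and Ndufa4l2 higher (4 members, 16.4%). Scaled to the total without mitochondrially coded genes, 3 members were called lower (3.03%) and 0 higher (10.3%), with medians of -0.14 for the members, of which 68 were below 0, and 0.07 for all genes.

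The catalytic core of the complexes was listed apart. In the scaling of the deposited table all 20 of its genes had a fold change below 0, from -0.59 for Sdha to -0.13, with a median of -0.28. Sdha and Ndufs1 were the called ones (5.64% of all genes were called lower). With the diet in TAC hearts all 20 were above 0, from 0.31 to 0.62, and 6 were called higher (6.23% of all genes). With TAC on the BCAA-free diet they ran from -0.17 to 0.16 and with the diet in sham hearts from 0.00 to 0.21. Limma called 0 in these 2 comparisons. At an unadjusted p below 0.05, 2 and 7 were higher there (11.3% and 9.11% of all genes), and 1 and 0 lower (12% and 10.8%). Uqcrc1, a core protein of complex III, had 101940, 95103 and 95622 normalized reads in the sham hearts and 74942, 67744 and 103090 in control diet TAC 1, 2 and 3. TAC 1 and 2 lay below every sham library and TAC 3 above every one. Atp5b had 485850, 461120 and 449310 in sham and 367570, 341530 and 435680 in TAC hearts. The groups did not overlap, and the difference of -0.30 ± 0.137 was not called (adjusted p = 0.176 by limma).

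**Figure D2:**
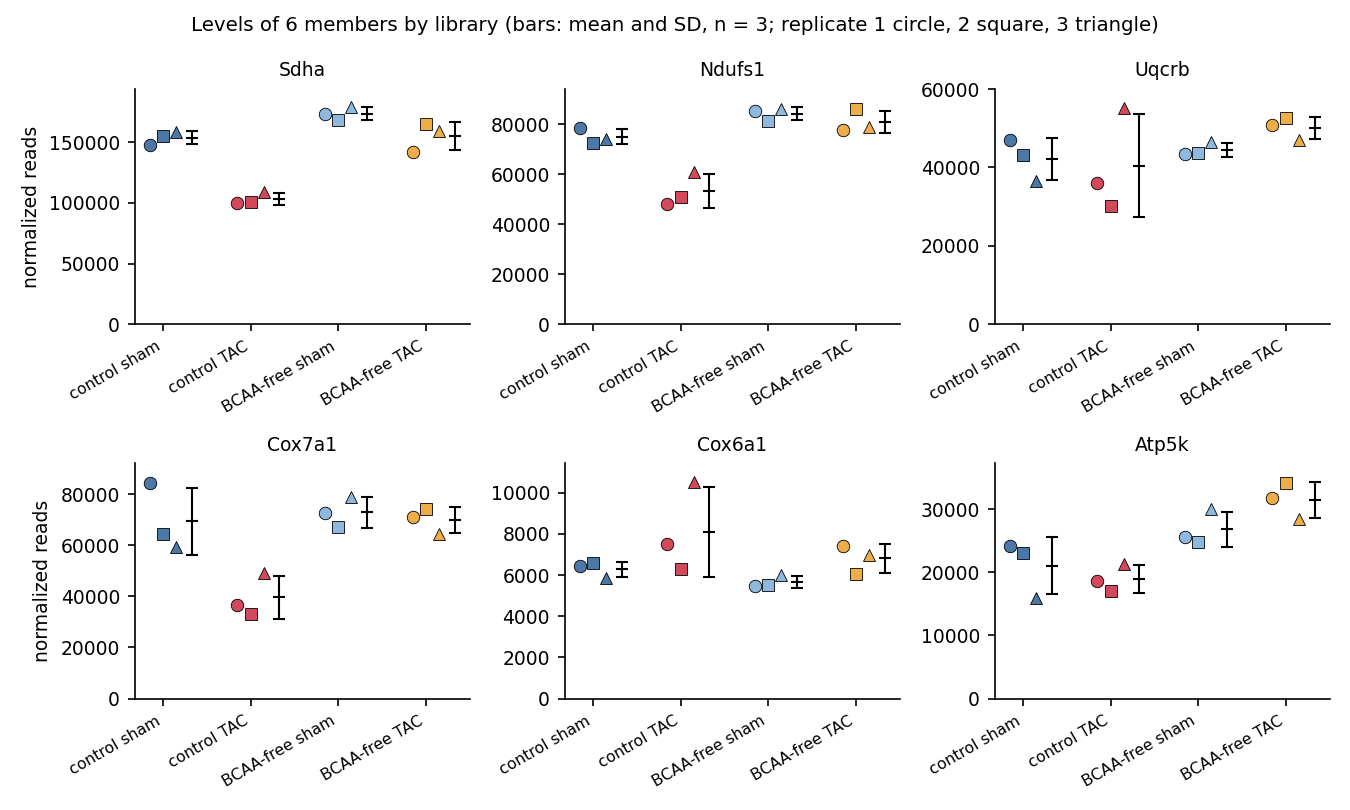
Normalized reads (vertical axis, from 0) of 6 members in each library, by group (horizontal axis); bars give the mean and SD of 3 libraries and shapes the replicate number. Sdha, Ndufs1 and Cox7a1 are lower in all 3 control diet TAC libraries than in any other library, whereas for Uqcrb and Cox6a1 the third control diet TAC library is the highest of all.

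TAC on the BCAA-free diet gave small differences, most of them above 0. Ndufa11 and Ndufc1, accessory subunits of complex I, and Cox6b1 and Cox8a, widely expressed subunits of complex IV, rose. These 4 of 81 members (4.94%) were called higher, near the 3.31% of all 17611 genes, and 0 were called lower (4.41% of all genes). The median was 0.09 against 0.01 over all genes, and 70 members were above 0. At an unadjusted p below 0.05, 25 were higher and 2 lower (30.9% and 2.47% of the members, against 11.3% and 12% of all genes).

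Ndufa11 (ENSMUSG00000002379, chr17:56717767-56722141) had 15967, 14862 and 15842 normalized reads in BCAA-free sham and 19957, 20624 and 18759 in BCAA-free TAC. All TAC libraries were above all sham libraries, and it rose by 0.34 ± 0.0566 (adjusted p = 0.00405 by limma). This was the 1 call kept whichever library was left out, at an adjusted p of 0.00828 to 0.0235. Ndufa11 shares 12.5% of its 50-base stretches with Ndufa11b and Vmac.

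Cox6b1 had 50196, 46282 and 53443 normalized reads in BCAA-free sham and 61360, 64017 and 56297 in BCAA-free TAC, without overlap (0.27 ± 0.0676, adjusted p = 0.0316 by limma). Cox8a had 9081, 8918 and 9513 and 11178, 10386 and 10504, again without overlap (0.21 ± 0.0538, adjusted p = 0.0324 by limma). Ndufc1 had 19721, 19748 and 21363 and 24207, 23094 and 22662, with all TAC libraries above all sham libraries (0.20 ± 0.0551, adjusted p = 0.0493 by limma). Ndufc1 lost its call whichever library was left out, at adjusted p by limma of 0.0663 to 0.1655. Cox6b1 kept its call without BCAA-free sham 3 or BCAA-free TAC 3 and lost it without any other library. Cox8a kept its call only without BCAA-free TAC 2. Sdha had 173130, 168030 and 178690 in BCAA-free sham and 141820, 164470 and 158900 in BCAA-free TAC. Its groups did not overlap, TAC being the lower one, but the difference of -0.17 ± 0.0649 was not called (adjusted p = 0.136 by limma).

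In the complexes with no call the smallest p by limma were those of Sdhd (0.16, adjusted p = 0.106), Uqcrh (0.27, 0.0544), Uqcrb (0.16, 0.111), Atp5j2 (0.26, 0.122) and Atp5k (0.23, 0.126).

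The number of members called higher was 1 without BCAA-free sham 1 (1.73% of all genes), 1 without sham 2 (1.77%) and 1 without TAC 1 (2.32%), Ndufa11 in each case. It was 2 without sham 3 (1.42%), 3 without TAC 2 (3.55%) and 8 without TAC 3 (2.03%). In 1 fit of all 12 libraries with a shared spread it was 0 (0.982% of all genes), and Ndufa11 had an adjusted p of 0.274 by limma. Without overlap, 20 members were higher and 2 lower (Sdha and Atp5s), 24.7% and 2.47% of the members, against 13.4% and 14.7% of all genes. The authors' deposited table gave 8 members as higher (5.71% of all genes) and 0 as lower (6.7%).

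The diet in sham hearts gave no call. Of the 82 members 0 were called higher by limma (1.27% of all 17862 genes) and 0 lower (2.27%). edgeR also called 0 higher (1.34% of all genes) and 0 lower (2.58%), and DESeq2 called 3 higher (3.67% of all genes) and 1 lower (6.2%). At an unadjusted p below 0.05, 23 members were higher and 2 lower (28% and 2.44% of the members, against 9.11% and 10.8% of all genes). Above 0 lay 75 members. The median was 0.12 against 0.00 over all genes.

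The smallest p was that of Ndufa4l2, a paralogue of Ndufa4 known to be induced in low oxygen. It had 1338, 1088 and 1152 normalized reads on the control diet and 976, 952 and 932 on the BCAA-free diet. The groups did not overlap (-0.32 ± 0.0876, adjusted p = 0.073 by limma). Atp5e, the epsilon subunit of complex V, had 29658, 29261 and 24633 and 32639, 31600 and 36096, with the BCAA-free libraries above the others (0.27 ± 0.0809, adjusted p = 0.0989 by limma). The smallest p in complex III was that of Uqcr10 (0.27 ± 0.0821, adjusted p = 0.1), in complex II that of Sdha (0.17 ± 0.057, adjusted p = 0.126) and in complex I that of Ndufs1 (0.17 ± 0.0561, adjusted p = 0.131), all by limma. Second by p in their complexes were Ndufv1 (0.16), Sdhc (0.16), Uqcr11 (0.22), Cox6a2 (0.24) and Atp5c1 (0.21), with adjusted p by limma of 0.103 to 0.207.

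Without overlap, 26 members were higher and 1 lower on the BCAA-free diet in sham hearts, 31.7% and 1.22% of the members, against 13.2% and 12.9% of all genes. Leaving out 1 library gave at most 1 call in each direction. Atp5l, named after its value was seen, was higher without control diet sham 1, and without control diet sham 2 Cox6a2 was higher and Ndufa4l2 lower. The authors' deposited table gave 3 members as higher (3.78% of all genes) and 1 as lower (6.33%).

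The diet in TAC hearts gave the most calls among the members. Genes of all 5 complexes were higher in BCAA-free TAC than in control diet TAC, which uses the control diet TAC libraries a second time. Of 81 members 29 were called higher (35.8%, against 6.23% of all 18039 genes) and 1 lower (1.23%, against 10.5%). The median was 0.44 against 0.02 over all genes, and 77 members were above 0. Called higher were 10 of 35 members in complex I, 1 of 4 in complex II, 3 of 8 in complex III, 9 of 18 in complex IV and 6 of 16 in complex V. Medians by complex ran from 0.43 in complex IV to 0.44 in complex I.

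In complex V the smallest p was that of Atp5k (ENSMUSG00000050856, chr5:108433244-108434448), the e subunit, which helps to join ATP synthases in pairs. It had 18559, 16957 and 21226 normalized reads in control diet TAC and 31752, 34049 and 28460 in BCAA-free TAC. The groups did not overlap, TAC 3 included (0.74 ± 0.123, adjusted p = 0.00401 by limma). Atp5g2 had 15841, 16918 and 15040 in BCAA-free TAC, all above the control diet TAC values given earlier (0.61 ± 0.107, adjusted p = 0.00546 by limma). The other called members of complex V were Atp5j (0.58), Atp5j2 (0.62), Atp5c1, the gamma subunit of the central stalk (0.60), and Atp5a1 (0.49).

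In complex IV, Cox7a1 had 70949, 74385 and 64259 normalized reads in BCAA-free TAC. All 3 were above the 49153 of control diet TAC 3 and higher still than the other control diet TAC libraries (0.84 ± 0.156, adjusted p = 0.00672 by limma). The other members of this complex called higher were Cox7b (0.68), the muscle forms Cox8b (0.75) and Cox6a2 (0.53), and Cox7a2 (0.58), Cox6c (0.57), Cox7c (0.61), Cox5b (0.43) and Ndufa4 (0.50), in log2. Ndufa4l2 was the member called lower. It had 1480, 1299 and 1386 in control diet TAC and 1066, 1015 and 1106 in BCAA-free TAC, without overlap, and fell by 0.38 ± 0.101 (adjusted p = 0.0315 by limma).

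Among complexes I to III the smallest p by limma were those of Sdha (0.59 ± 0.118, adjusted p = 0.00892), Ndufa1 (0.60 ± 0.121, adjusted p = 0.00962) and Ndufs1 (0.62 ± 0.126, adjusted p = 0.0105). Ndufs1 had 77475, 85841 and 78948 normalized reads in BCAA-free TAC, all above the 60809 of control diet TAC 3. The other called members of complex I were Ndufb4 (0.70), Ndufc1 (0.62), Ndufs6 (0.56), Ndufa3 (0.55), Ndufa6 (0.53), Ndufa12 (0.50), Ndufa13 (0.47) and Ndufv3 (0.44). In complex III they were Uqcr11 (0.54), Uqcrq (0.53) and Uqcrc2 (0.45). Sdhc, second by p in complex II, had 0.46 and was not called (adjusted p = 0.0772 by limma).

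Which members passed depended on single libraries. Whichever library was left out, 3 of the 29 members kept the call, namely Atp5g2, Atp5k and Cox7a1. Ndufa4l2 lost it without control diet TAC 1 (adjusted p = 0.117 by limma) or any 1 library of BCAA-free TAC (0.084 to 0.151). The count of members called higher was 9 without control diet TAC 1 (2.95% of all genes), 13 without TAC 2 (4.45%) and 76 without TAC 3 (16.2% of all genes). It was 7 without BCAA-free TAC 1 (3.14%), 3 without TAC 2 (1.5%) and 12 without TAC 3 of that diet (2.2%). Without control diet TAC 3 those higher were 35 of 35 in complex I, 4 of 4 in complex II, 8 of 8 in complex III, 13 of 18 in complex IV and 16 of 16 in complex V, with a median of 0.60. Ndufa4l2 was then the 1 member called lower (17.3% of all genes).

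Scaled to the library total with all genes, 12 members were called higher (2.13% of all genes) and 1 lower (22.8%), and the members' median was 0.21 where that of all genes was -0.21. Scaled without mitochondrially coded genes, 15 were higher (2.54%) and 1 lower (16.9%), with medians of 0.27 and -0.15. In the fit of all 12 libraries 53 were called higher (11.4%).

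Without overlap, 38 members were higher and 2 lower (Cox6b2 and Ndufa4l2), 46.9% and 2.47% of the members, against 17% and 19.2% of all genes. The authors' deposited table gave 41 members as higher (8.21% of all genes) and 1 as lower (12.7%). In the same comparison 6 of 11 cardiomyocyte markers were called higher, with a median of 0.54, and 5 of 5 activated fibroblast markers and 6 of 6 macrophage markers were called lower. Their part in the members' differences was not tested.

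**Figure D3:**
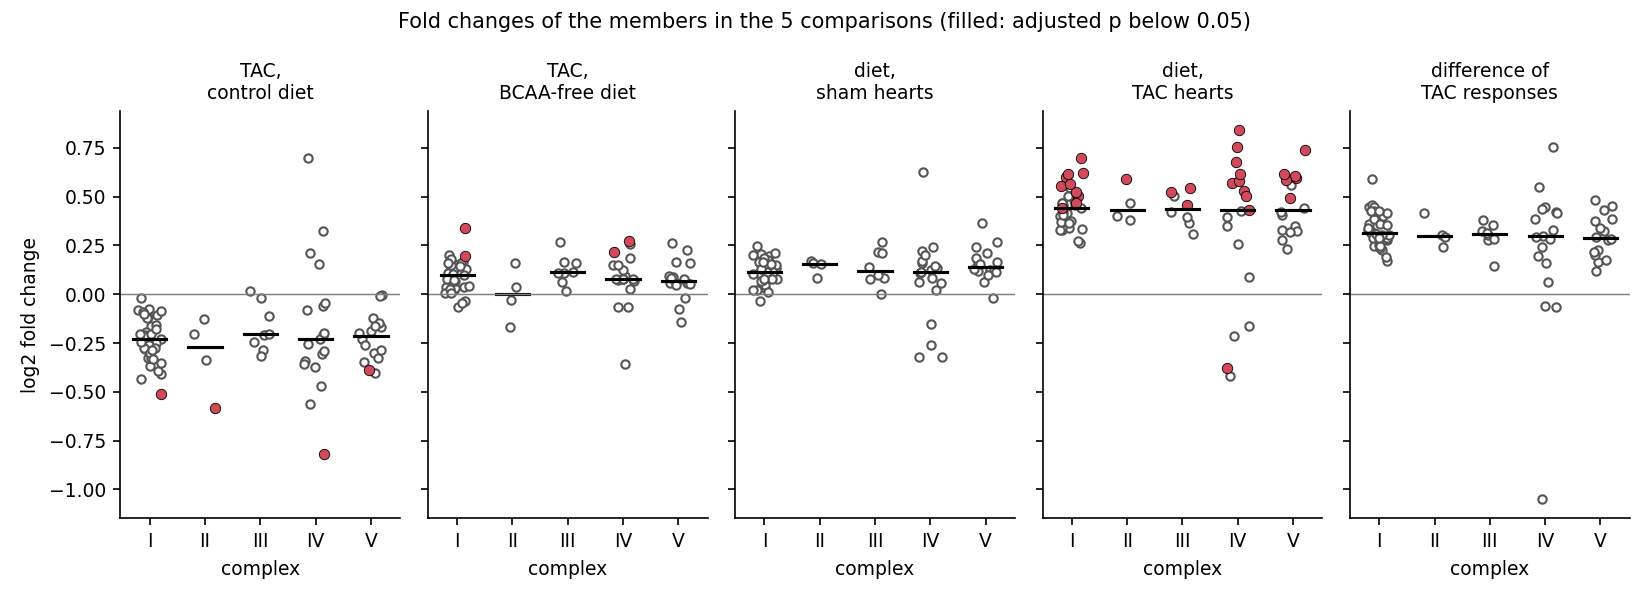
Log2 fold change of every tested member (vertical axis) by complex (horizontal axis) in the 5 comparisons; filled points have an adjusted p below 0.05 by limma and bars are medians. Of the members, 4 are filled as lower for TAC on the control diet, 4 as higher for TAC on the BCAA-free diet, 29 as higher and 1 as lower for the diet in TAC hearts, and 0 in the other comparisons.

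**Figure D4:**
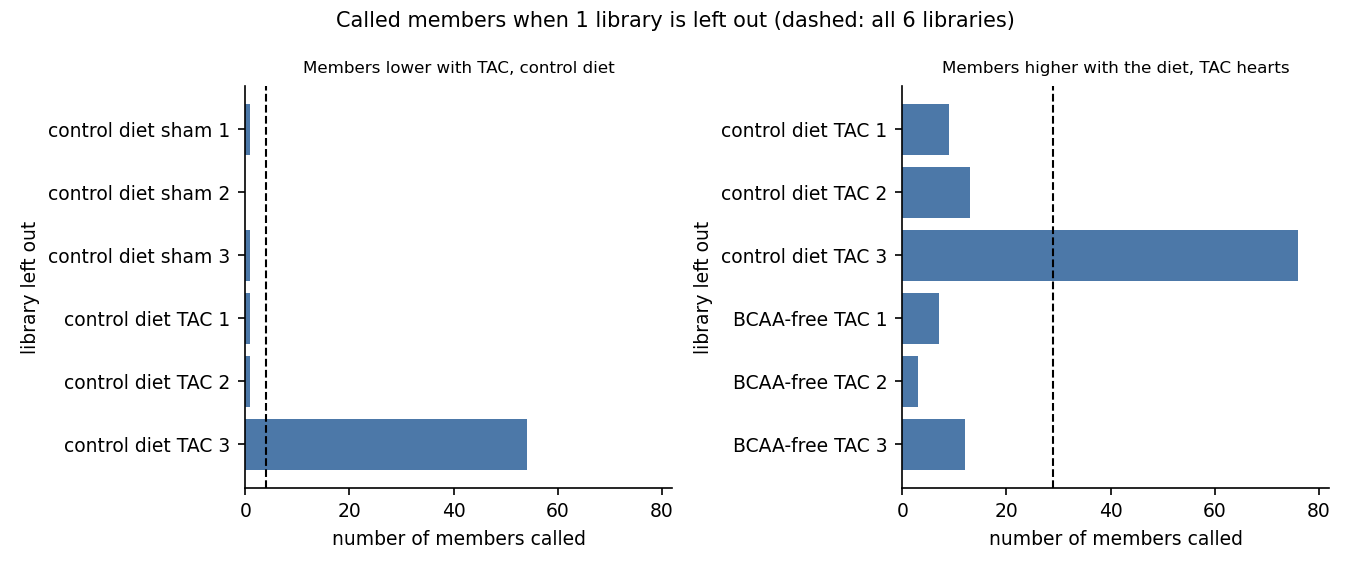
Number of members called by limma (horizontal axis) after leaving out the library named on the vertical axis; the dashed line is the count with all 6 libraries. Leaving out control diet TAC 3 raises the counts to 54 lower with TAC on the control diet and 76 higher with the diet in TAC hearts, and each other library lowers them.

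Whether TAC acted unequally on the members under each diet was tested directly as a difference of fold changes over all 12 libraries. By limma 0 of 81 members were called higher (0.171% of all 17493 genes) and 0 lower (0.503%). edgeR called 0 higher (0.189% of all genes) and 0 lower (0.617%) as well, and DESeq2 called 4 higher (1.85%) and 1 lower (3.6%). At an unadjusted p below 0.05, 22 members were higher and 1 lower (27.2% and 1.23% of the members, against 6.55% and 8.11% of all genes). The members' median was 0.30 against 0.02 over all genes, and 78 lay above 0, which stands for a higher fold change with TAC on the BCAA-free diet. The smallest p by limma were those of Atp5g2 (0.48 ± 0.123, adjusted p = 0.0841), Cox6b2 (-1.05 ± 0.298, adjusted p = 0.109), Cox7a1 (0.75 ± 0.214, adjusted p = 0.109) and Sdha (0.42 ± 0.121, adjusted p = 0.115). Ndufs1 (0.45), Ndufa12 (0.45), Sdhc (0.30), Uqcrc2 (0.35), Uqcrq (0.38) and Atp5j (0.45) had the smallest p next to these in their complexes, with adjusted p by limma of 0.137 to 0.482.

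Without control diet TAC 3, 60 members were called higher (5.09% of all genes) and 1 lower (4.95%), with a median of 0.49. Those higher were 30 in complex I, 4 in complex II, 5 in complex III, 10 in complex IV and 11 in complex V, and the lower one was Cox6b2. Control diet TAC 3 was picked because it stood apart for these same members, so these counts are not a separate test of the difference. With any other library left out, 0.0172 to 0.297% of all genes were called higher and 0.0629 to 0.635% lower. Cox6b2 is present at few reads. It had 94.2, 93.1 and 58 normalized reads in BCAA-free sham and 59.8, 63.6 and 64 in BCAA-free TAC, where BCAA-free sham 3 lay just below the TAC libraries and the other sham libraries above them.

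Several subunits are coded by more than 1 gene, and the ratio of such genes within a library does not depend on how the library is scaled. Muscle forms stood lower against their widely expressed partners in control diet TAC than in any other group. Activated fibroblast and macrophage markers were highest in that group, at sums of 52791 to 109070 and 21386 to 24076 normalized reads. In the other groups they reached at most 16002 and 16530. The part of the mix of cells in these ratios was not tested. Ratios of 7 pairs were compared in 4 comparisons each. With 3 libraries against 3, the exact two-sided permutation test cannot give a p below 0.1 (0.187 adjusted over the 28 tests), the value in each of the 15 without overlap. Cox6a2, the heart and skeletal muscle form of subunit VIa, had 11.7, 12.4 and 11.1 times the reads of Cox6a1 in the sham hearts and 8.74, 7.98 and 6.91 times in the TAC hearts of the control diet. On the BCAA-free diet it had 15.9, 15.3 and 15.03 times in sham and 12.1, 14.3 and 13 times in TAC hearts. None of the 4 comparisons overlapped, with log2 differences of -0.58 and -0.23 for TAC on the control and the BCAA-free diet, and 0.40 and 0.74 for the diet in sham and TAC hearts. Control diet TAC 3 had the lowest ratio of all, with Cox6a1 at 10528 normalized reads against 5454 to 7491 in the other libraries.

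Cox7a1 had 2.89, 2.27 and 2.34 times the reads of Cox7a2 in sham and 1.73, 1.62 and 1.82 times in TAC hearts of the control diet. On the BCAA-free diet it had 2.36, 2.32 and 2.39 times in sham and 2.003, 2.14 and 2.05 times in TAC hearts. The TAC libraries were lower on both diets without overlap (log2 differences of -0.53 and -0.19), and the sham libraries of the diets overlapped. Cox8b, the muscle form of subunit VIII, had 4.4, 3.97 and 3.55 times the reads of Cox8a in sham and 2.27, 2.36 and 3.17 times in TAC hearts of the control diet. On the BCAA-free diet it had 4.48, 4.16 and 4.83 and 4.09, 4.49 and 3.71 times, which overlapped. For these 3 pairs the control diet TAC libraries had the lowest ratios, TAC 3 included.

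Ndufa4l2 and Cox4i2 are forms known from low oxygen, and both were rare beside Ndufa4 and Cox4i1. The ratio of Ndufa4l2 to Ndufa4 was 0.0266 ± 0.00379 (mean, SD, n = 3) in control diet TAC and 0.0144 ± 0.00179 in BCAA-free TAC. It was 0.0199 ± 0.00158 in the sham hearts of the control diet and 0.0147 ± 0.000768 in those of the BCAA-free diet. Control diet TAC was above control diet sham, and both BCAA-free groups were below their control diet groups, without overlap. The BCAA-free groups overlapped each other. The ratio of Cox4i2 to Cox4i1 was 0.0049 ± 0.000673, 0.00342 ± 0.000375, 0.00422 ± 0.00088 and 0.0031 ± 0.000326 in the same order, without overlap in 1 comparison of 4, the diet in TAC hearts.

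The 3 genes of the c subunit code the same mature protein with different import sequences. Atp5g1 had 0.949, 0.926 and 0.887 of the reads of Atp5g3 in control diet sham and 0.79 to 0.85 in all other libraries, so control diet sham stood above the rest. Atp5g2 had 0.128 to 0.149 of the reads of Atp5g3 in 11 libraries and 0.0794 in control diet TAC 3. In that library Atp5g3 was at 130270 normalized reads, against 74544 to 120160 in the others.

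**Figure D5:**
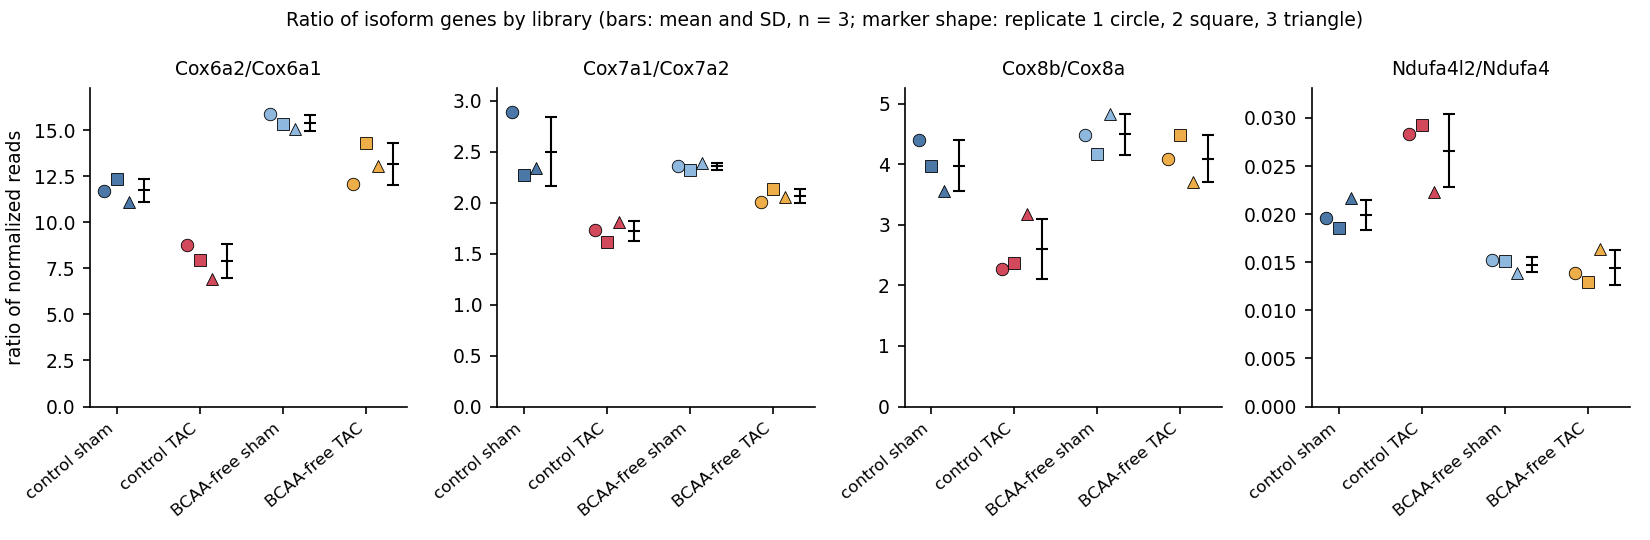
Ratio of normalized reads of 4 pairs of isoform genes (vertical axis, from 0) in each library, by group (horizontal axis); bars give the mean and SD of 3 libraries and shapes the replicate number. The ratios Cox6a2/Cox6a1, Cox7a1/Cox7a2 and Cox8b/Cox8a are lowest in the 3 control diet TAC libraries, and Ndufa4l2/Ndufa4 is highest there.

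The 13 mitochondrially coded subunits are the partners of the members in complexes I, III, IV and V. With TAC on the control diet 6 were called lower (5.64% of all genes) and 0 higher (9.17%), with a median of -0.55. With the diet in TAC hearts 8 were called higher (6.23% of all genes) and 0 lower (10.5%), with a median of 0.49. mt-Atp6, a proton channel subunit of complex V, had 3077, 3707 and 3574 normalized reads in control diet sham and 1899, 1662 and 1864 in control diet TAC. These are low counts beside those of most other mitochondrially coded subunits: in control diet sham 1, mt-Atp6, mt-Atp8, mt-Co2, mt-Co3 and mt-Nd4l were at 1144 to 3433 normalized reads and mt-Nd3 at 11543, while mt-Co1 was at 9918100 and the other 6 at 757280 to 4287000. The part of reads with several matches in these low counts was not tested. For mt-Atp6 TAC 3 lay with its group (-0.94 ± 0.108, adjusted p = 0.00114 by limma). mt-Atp8, its neighbour in the same transcript, fell by 1.25 ± 0.179 (adjusted p = 0.00309 by limma), and with the diet in TAC hearts mt-Atp6 was higher by 0.76 ± 0.112 and mt-Atp8 by 1.00 ± 0.174. With TAC on the BCAA-free diet and with the diet in sham hearts limma called 0 of the 13, where 2 and 1 were lower and 0 and 0 higher at an unadjusted p below 0.05.

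The 13 summed to 4.84, 4.68 and 3.58 times the reads of the nuclear members in control diet TAC and to 5.7, 4.91 and 5.34 times in control diet sham. On the BCAA-free diet the ratio was 4.31 to 4.56 in TAC and 4.6 to 4.86 in sham hearts. Control diet TAC 3 had the lowest ratio of all libraries. Scaled to the library total with all genes, 4 of the 13 were called lower with TAC on the control diet (2.14% of all genes). In the same scaling 2 were called higher with the diet in TAC hearts (2.13%). The RNA was poly(A) selected, and the part of that step in these levels was not tested.

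Assembly factors put the complexes together. Of 16 for complex I, 1 was called lower with TAC on the control diet, Tmem186 (-0.35), and 2 were called higher with the diet in TAC hearts, Tmem186 (0.39) and Foxred1 (0.42). Of the 4, 6 and 18 factors of complexes II, III and IV, limma called 0 in either of these comparisons. At an unadjusted p below 0.05, 0, 3 and 5 of them were lower and 0, 0 and 1 higher with TAC on the control diet, and 0, 4 and 7 were higher and 0, 0 and 0 lower with the diet in TAC hearts. Cox19, a complex IV factor, rose with TAC on the BCAA-free diet (0.32). Of 4 complex V factors, Atpaf1 was called higher with the diet in TAC hearts (0.38) and in sham hearts (0.23). Over all genes 5.64% were called lower and 9.17% higher with TAC on the control diet. With the diet in TAC hearts the shares were 10.5% and 6.23%, with TAC on the BCAA-free diet 4.41% and 3.31%, and with the diet in sham hearts 2.27% and 1.27%. These shares are the background to the adjusted calls of every list from the mitochondrially coded subunits to the regulators. At an unadjusted p below 0.05, 13.6% of all genes were lower and 16.1% higher with TAC on the control diet. With the diet in TAC hearts these were 17.1% and 14.3%, with TAC on the BCAA-free diet 12% and 11.3%, and with the diet in sham hearts 10.8% and 9.11%. Without control diet TAC 3, 12.1% were called lower with TAC on the control diet and 16.2% higher with the diet in TAC hearts. In that setting, 11 of 16, 2 of 4, 3 of 6, 11 of 18 and 3 of 4 factors of complexes I to V were called lower with TAC on the control diet. With the diet in TAC hearts 16, 4, 5, 13 and 3 were then called higher. Control diet TAC 3 was picked because it stood apart for the members. For the lists from the assembly factors to the regulators, calls without any other single library were not counted. For the members, leaving out any other library lowered the counts in both of these comparisons.

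Of 13 genes of coenzyme Q synthesis and cytochrome c, the mobile electron carriers, Coq8a (-0.53) and Coq9 (-0.49) were called lower with TAC on the control diet. Coq9 (0.61) and Cycs (0.48), cytochrome c itself, were called higher with the diet in TAC hearts, and Pdss1 (0.37) with TAC on the BCAA-free diet. Of 9 membrane carriers and creatine kinases, Ucp2, an uncoupling protein that macrophages also express, rose with TAC on the control diet (0.80) and was lower with the diet in TAC hearts (-0.86). Slc25a4, the ADP/ATP carrier of heart and muscle, was called higher with the diet in TAC hearts (0.70). Ckmt2, the mitochondrial creatine kinase of muscle, rose with TAC on the BCAA-free diet (0.30). Without control diet TAC 3, beside the 12.1% and 16.2% of all genes just given, the counts were 10 of 13 and 5 of 9 lower with TAC on the control diet, and 12 and 6 higher with the diet in TAC hearts.

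Of 16 regulators of mitochondrial genes, 5 were called lower and 0 higher with TAC on the control diet. The smallest p by limma were those of Perm1, a muscle regulator of this pathway (-0.52 ± 0.0959, adjusted p = 0.00836), and Esrrg, an oestrogen-related receptor (-0.51 ± 0.102, adjusted p = 0.0115). With TAC on the BCAA-free diet Gabpa (-0.32), the DNA-binding subunit of GABP, and Esrrg (-0.24) were called lower. With the diet in TAC hearts 6 were called higher and 0 lower, with the smallest p for Perm1 (0.53 ± 0.0994, adjusted p = 0.00708) and Tfb2m, a mitochondrial transcription factor (0.47 ± 0.104, adjusted p = 0.0153), by limma. In sham hearts the diet gave 0 calls by limma, with 4 regulators higher and 0 lower at an unadjusted p below 0.05. Without control diet TAC 3, 9 were lower with TAC on the control diet (12.1% of all genes) and 9 higher with the diet in TAC hearts (16.2%). Scaled to the library total with all genes, 2 were lower (2.14% of all genes) and 1 higher (16.4%) with TAC on the control diet. With the diet in TAC hearts 2 were then lower (22.8% of all genes) and 1 higher (2.13%).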

How the data were processed

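The 12 heart libraries are of poly(A)-selected RNA extracted with Trizol, per the labels' protocols. Tools named in the submitters' processing notes are Subread 1.5.2, STAR 2.5.2b, Trimmomatic 0.36 and DESeq2 (no version), and the builds GRCm38 and mm10. The role of each tool, the annotation and the strand setting have no statement in the labels, so overlapping and antisense genes can share reads. The authors deposited 4 tables, 1 per pair of groups. Per the file headers these hold normalized counts (a signal per library, scaled within each table), the authors' log2 fold changes and their p-values. All 431838 deposited normalized counts were whole multiples of 1 step per library (100% within 0.0001 read), which gave back the reads. Each table lists genes with at least 61 reads over 6 libraries, and 31 rows had no gene name.

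Since the values are normalized, limma 3.58.1 (R 4.3.3, trend and robust empirical Bayes) was used on log2(value + 1), a scale that understates changes of low genes. The filter kept genes whose mean reached 10, fitted with each pair of groups alone and the difference of responses in 12 libraries. Adjusted p-values are limma's unless another tool is named. Alternatives were a pseudocount of 8, no filter or a mean of 50, edgeR 4.0.16 and DESeq2 1.42.0 on the recovered reads, other scalings, a replicate block and leaving out each library. The normalized reads printed per library were scaled by joint size factors of the 12 libraries, so their ratios can differ from fold changes. Code was tested on simulated data. Members and lists were chosen with earlier results of these data known. Named are the catalytic core, the isoform pairs, per complex the called members, the 2 smallest p and the 2 highest and lowest levels, and the 2 smallest p of each other list.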

Additional observations from a re-analysis of the deposited data

Results flagged for a closer look

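In 2 genes outside the members, mt-Atp8 and Perm1, responses to TAC on the 2 diets differed by the test of that difference. mt-Atp8, the mitochondrially coded subunit 8 of complex V, had 1144, 1203 and 1344 normalized reads (low beside most of the 13 mitochondrially coded subunits) in sham and 629, 576 and 383 in TAC hearts of the control diet, and 950, 1206 and 1224 in sham and 1009, 998 and 1088 in TAC hearts of the BCAA-free diet. The difference was 1.13 ± 0.22 (log2, SE; adjusted p = 0.0367 by limma), and 0.92 without control diet TAC 3 (adjusted p = 0.00394). For Perm1 it was 0.55 ± 0.115 (adjusted p = 0.0456 by limma), and 0.57 without control diet TAC 3 (adjusted p = 0.00633). Scaling to the library total without mitochondrially coded genes ended both calls (adjusted p = 0.065 and 0.0645 by limma), and scaling with them ended that of Perm1 (0.0693). The call of mt-Atp8 held without control diet TAC 1, control diet TAC 3 or BCAA-free TAC 1 and was lost without any other library, and that of Perm1 held without control diet TAC 3 or BCAA-free TAC 1 and was lost without any other. With single libraries left out the adjusted p reached 0.105 for mt-Atp8 and 0.155 for Perm1, both without BCAA-free TAC 2.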

How the results depend on the processing

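Counts of called members moved with these settings, each given with the share of all genes called. For TAC on the control diet, members lower were 7 by DESeq2 (8.07%), 2 scaled to the total with all genes (2.14%) and 14 in the joint fit of 12 libraries (11.3%). Members higher were 1 with a mean of at least 50 (10.7%), 1 by DESeq2 (11.8%), 1 in the joint fit (13.6%) and 4 scaled to the total with all genes (16.4%). For TAC on the BCAA-free diet, members higher were 8 by DESeq2 (5.73%), 2 scaled without mitochondrially coded genes (2.79%) and 0 in the joint fit (0.982%). For the diet in sham hearts DESeq2 gave 3 higher (3.67%) and 1 lower (6.2%). For the diet in TAC hearts, members higher were 15 and 12 scaled without and with mitochondrially coded genes (2.54% and 2.13%) and 53 in the joint fit (11.4%). For the difference of responses DESeq2 gave 4 higher (1.85%) and 1 lower (3.6%), and scaling with all genes 1 lower (5.65%). Leaving out 1 library gave 0 to 54 lower (2.03 to 12.1% of all genes) and 0 to 1 higher (4.84 to 13.6%) for TAC on the control diet, and 1 to 8 higher (1.42 to 3.55%) for TAC on the BCAA-free diet. It gave 0 to 1 higher (0.0785 to 1.98%) and 0 to 1 lower (0.202 to 4.05%) for the diet in sham hearts, 3 to 76 higher (1.5 to 16.2%) and 0 to 1 lower (5.14 to 17.3%) for the diet in TAC hearts, and 0 to 60 higher (0.0172 to 5.09%) and 0 to 1 lower (0.0629 to 4.95%) for the difference. Joined exon lengths, chosen after seeing the data, gave median levels per kilobase of 17534, 27112, 32054, 32805 and 21425 for complexes I to V. No called value of a named result changed sign in the settings run, though members that were not called did, for example with scaling to the total with all genes. Of values of named members under alternatives, 882 kept their side of the threshold, 200 lost a call and 43 gained one, and 196 values of isoform ratios moved by less than 1 SD. Cox7b2 and Cox6b2 rest on few reads.

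Replicate numbers did not pair the libraries: same-numbered deviations correlated at -0.171 to 0.035, and 1 of 12 was highest with its own number. With the replicate block the count was 2 lower (3.44% of all genes) for TAC on the control diet, 1 higher (1.72%) for TAC on the BCAA-free diet, and 14 higher (3.49%) and 0 lower (7.8%) for the diet in TAC hearts, and mt-Atp8 and Perm1 lost their calls (adjusted p = 0.0883 and 0.0998 by limma).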
